A study of Homo sapiens with 16 samples.

Results

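In Jurkat cells, 741 of the 2027 ERG binding sites (36.6%, 95% Wilson interval 34.5 to 38.7) lay where no GABPα peak was found. The number depended on the calls used: 318 sites remained without ERG replicate 2, and 1489 (73.5%) lacked GABPα when only high confidence GABPα counted. A site is a high confidence ERG interval, meaning one called by both of the study's peak callers, MACS and SWEMBL, and intervals of the 2 ERG replicates that shared at least 1 bp were merged into 1 site. A site was kept when it shared no base with a MACS peak or a high confidence interval of either Jurkat GABPα replicate. The other sites held a high confidence GABPα interval (538 sites) or GABPα peaks of MACS alone (748 sites), and these served for comparison. Merging the high confidence intervals of all 10 ChIP samples of the series gave 17167 places. The sites were chosen by their ERG calls and by the lack of Jurkat GABPα calls, so all Jurkat values below are descriptions and carry no test. The Wilson intervals count sites, which are not replicates, and cover counting error only.

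ChIP-seq measures where a protein sits on DNA by sequencing the fragments that an antibody pulls down. Jurkat is an established line of human leukaemic T cells, grown here without treatment and with 2 replicates each for ERG and GABPα. VCaP is a human prostate cancer line, measured for both factors with 1 sample each at t0, a name the labels do not explain, with ethanol vehicle and with 1 nM of the synthetic androgen R1881. Vehicle and R1881 cells had spent 48 h in serum stripped of steroids with charcoal. A further 6 input libraries served as background for peak calling, and within Jurkat both ERG replicates were called against 1 input library and both GABPα replicates against another. The catalogue number that the labels give for the ERG antibody differs from the number that the study's methods give for ERG. The files used here hold no check of which protein was pulled down. All positions are on hg18, and because no genome or annotation of that build was used, genes and sequences at the sites were not analysed here.

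ERG and GABPα belong to the ETS family of transcription factors, which share a DNA-binding domain that recognises a GGAA core. GABPα binds mostly at promoters of widely expressed genes together with its partner GABPβ, whereas ERG is a factor of blood stem cells and endothelium that is also active in T-cell leukaemia. In many prostate cancers, VCaP included, a fusion places ERG under an androgen-responsive promoter.

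The Jurkat ERG libraries differed in how much was called. MACS listed 7288 ERG peaks in replicate 1 and 15229 in replicate 2, beside 21503 and 22108 for GABPα, and the high confidence files held 1103 and 1801 ERG intervals. Of the 1103 intervals of replicate 1, 1069 were whole MACS peaks, with a median length of 389 bp over the file, whereas all 1801 of replicate 2 were the narrower SWEMBL intervals, with a median of 151 bp. The length of a site thus depended on the replicate that supplied it. Read totals were not in the files, so depth is unknown and an ERG site without GABPα is a site where GABPα was not called, not one where its absence was shown.

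Support by both ERG replicates was less frequent among the sites without GABPα. An ERG high confidence interval was present in both replicates at 212 of the 741 sites (28.6%, 25.5 to 32.0), against 38.5% of all Jurkat ERG sites. The share was 42.6% (39.1 to 46.2) at sites with GABPα of MACS alone and 46.5% (42.3 to 50.7) at sites with high confidence GABPα, so the interval of the sites without GABPα overlapped neither. A further 274 sites (37.0%) had a high confidence interval in 1 replicate and a MACS peak in the other. The remaining 255 (34.4%, 31.1 to 37.9) had no MACS peak in the other replicate, against 23.4% of all Jurkat ERG sites, 15.6% with MACS-only GABPα and 19.1% with high confidence GABPα. Site length also differed between the classes. Sites of at most 200 bp were 56.1% of those without GABPα, 39.8% with MACS-only GABPα and 39.96% with high confidence GABPα. Over all Jurkat ERG sites the median length was 143 bp for high confidence in replicate 2 only, and 391 bp for high confidence in replicate 1. The classes were not compared at equal length, so the part of length in the difference in support was not tested.

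**Figure D1:**
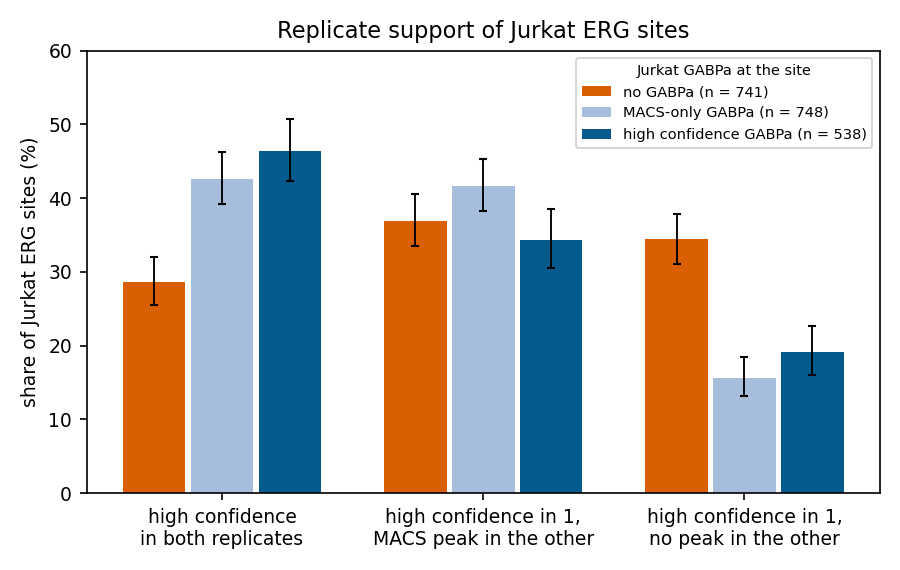
Share of Jurkat ERG sites (%, vertical axis) by support in the 2 ERG replicates, for sites without GABPα (n = 741), with GABPα peaks of MACS alone (n = 748) and with high confidence GABPα (n = 538); bars are shares and whiskers 95% Wilson intervals over sites. The sites without GABPα are lowest for support in both replicates (28.6%) and highest for no peak in the other replicate (34.4%).

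The support came mainly from replicate 2, the replicate with more calls. Of the 741 sites, 423 (57.1%) were high confidence in replicate 2 only and 106 (14.3%) in replicate 1 only. A MACS peak of replicate 2 lay at 699 of the sites (94.3%) and one of replicate 1 at 528 (71.3%). For replicate 1 this share was 88.1% at sites with MACS-only GABPα and 85.3% at sites with high confidence GABPα, while for replicate 2 it was 96.3% and 95.5%. The difference between the classes was thus wide in replicate 1 and narrow in replicate 2. High confidence intervals of replicate 2 lay at 84.1% of all Jurkat ERG sites, and those of replicate 1 at 54.4%. Sites were chosen by these intervals, and the part of that choice in the difference between the replicates was not tested.

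ERG scores of the sites without GABPα were spread widely in both replicates. The MACS score is 10 times the negative log10 of the peak's p-value and starts at 50. In replicate 1 the 528 scored sites ran from 50.09 over a median of 123.41 to 1783.18, below the highest score of that file, 3138.74. In replicate 2 the 699 scored sites ran from 50.08 over a median of 218.93 to 3119.66, the highest score of that file. Sites with MACS-only GABPα had higher medians of 174.89 and 270.56, and sites with high confidence GABPα had 175.47 and 223.17. In replicate 1 the sites without GABPα therefore had the lowest median of the 3 classes by some margin, and in replicate 2 they were close to those with high confidence GABPα. By the higher of the 2 replicate scores the median was 215.77 without GABPα, 290.04 with MACS-only GABPα, 233.95 with high confidence GABPα and 245.12 over all sites.

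At the 486 sites without GABPα that had a MACS peak in both replicates, the score was higher in replicate 2 at 391 (80.5%), with medians of 125.97 and 269.73. Spearman's rho between the replicates was 0.41 over these sites, 0.44 over 631 sites with MACS-only GABPα and 0.48 over 435 with high confidence GABPα. These are descriptions across sites that share 1 input library, and sites that lie in the same MACS peak share its score. In replicate 2, 41 MACS peaks held 100 of the sites, up to 6 in 1 peak, whereas in replicate 1 13 peaks held 26. Sites high confidence in both replicates had a median highest score of 356.12 and those high confidence in 1 replicate only had 174.86.

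**Figure D2:**
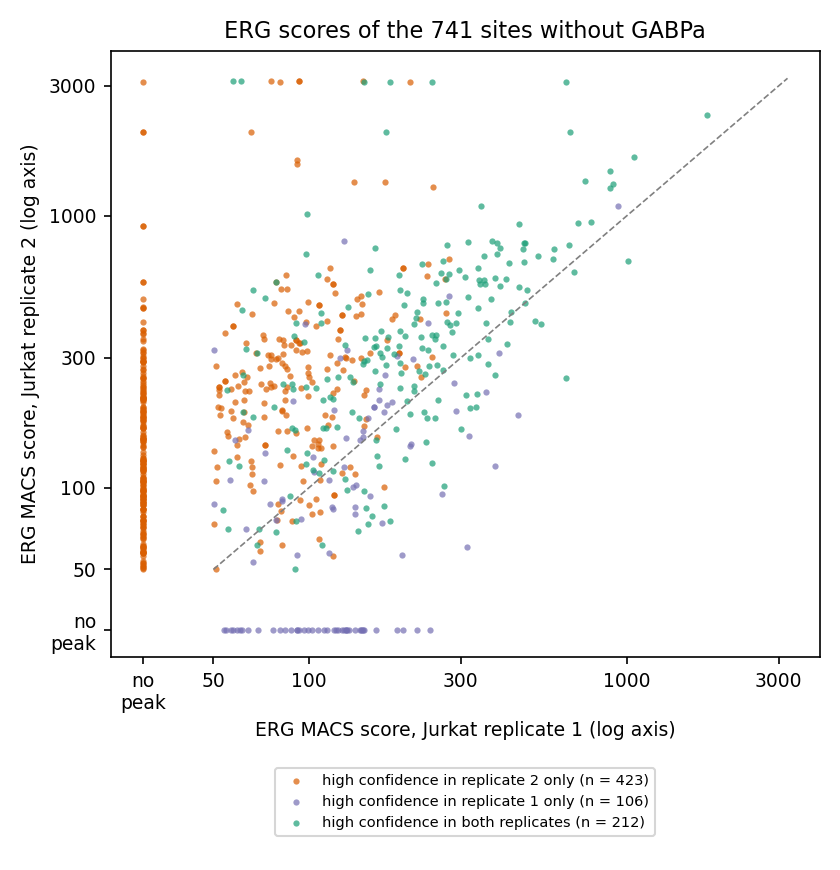
MACS score of each of the 741 sites in Jurkat ERG replicate 1 (horizontal) and replicate 2 (vertical), both on log axes, with sites lacking a MACS peak in a replicate placed at "no peak" below the minimum score of 50; colours give the replicate with the high confidence interval and the dashed line marks equal scores. Most sites with both scores lie above the line (391 of 486), and a row near the top holds sites inside broad replicate 2 peaks with scores near 3100.

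The share of ERG sites without GABPα was highest among weak ERG sites. With the 2027 sites ranked by their highest ERG score and cut into 4 bins of near equal size, 247 of 507 sites (48.7%, 44.4 to 53.1) lacked GABPα in the lowest bin, 34.4% in the second, 33.5% in the third and 150 of 507 (29.6%, 25.8 to 33.7) in the highest. Sites of the lowest bin were also shorter, with a median of 163 bp against 387 bp in the highest. When whole MACS peaks stood in for the sites, which narrows the spread of median lengths to between 682.5 and 914.5 bp, the shares were 47.4%, 34.6%, 34.5% and 28.4%. Within each replicate on its own score the order from lowest to highest bin was 40.9%, 29.5%, 21.7% and 23.2% in replicate 1, and 47.9%, 34.6%, 33.8% and 32.8% in replicate 2. Within each replicate the interval of the lowest bin overlapped none of the others, and the upper 3 overlapped each other. Over sites more than 10 kb from any other ERG site the shares were 41.0% (36.1 to 46.1), 34.4% (29.7 to 39.4), 35.6% and 28.8%, so there the lowest bin overlapped the next 2. Of the 93 sites with a score of 1000 or more, 33 (35.5%, 26.5 to 45.6) lacked GABPα. These 33 lay in 17 replicate 2 MACS peaks, 24 of them were clustered, and 2 scored 1000 or more in both replicates.

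The 10 sites without GABPα that scored highest in the weaker of their replicates were high confidence in both replicates, except for 1 site that was high confidence in replicate 1 only. The strongest, chr1:158776329-158777142, scored 1783.18 in replicate 1 and 2351.65 in replicate 2, and its nearest GABPα peak was 16385 bp away. SWEMBL alone, which the rule did not count, called GABPα at this site in GABPα replicate 2. The second, chr3:152336233-152337008, scored 1050.64 and 1647.63, with GABPα 2086 bp away. The third, chr14:59881157-59881805, scored 937.90 and 1082.83 and was the site with high confidence in replicate 1 only, with GABPα at 723 bp. Its replicate 2 peak also held another site without GABPα, 616 bp away, which carried the high confidence interval of replicate 2. In all 3 the score was higher in replicate 2. Next came chr6:2487974-2488542 (903.96 and 1309.06), chr10:121894500-121895216 (887.27 and 1463.64, GABPα at 44193 bp) and chr1:91049800-91050220 (881.47 and 1268.28, GABPα at 244 bp). Sites chr5:134352903-134353445 (773.11 and 951.01), chrX:38397222-38397784 (735.31 and 1342.49) and chr6:51125736-51126271 (701.88 and 938.42) followed. The tenth, chr3:5124998-5125422, was the only 1 of the 10 with the higher score in replicate 1, at 1008.63 against 683.02. Strong ERG signal in both replicates was thus found both close to GABPα (244 bp) and far from it (44193 bp). None of the 10 carried a MACS peak of ERG or GABPα in any of the 6 VCaP samples, which allows a share of up to 27.8%. Among the 100 sites that scored highest in the weaker replicate, 15 had a VCaP ERG peak in some treatment (interval 9.31% to 23.3%). The share was 12.3% over the 741 sites and 15.8% over all Jurkat ERG sites, so the 15 were near the background. The interval for the 10 sites also covered both shares.

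The median gap from a site without GABPα to a GABPα peak was over 10 kb, and nearly all sites were within 100 kb of one. The gap to the nearest edge of a Jurkat GABPα peak ran from 45 bp over a median of 14648 bp to 882673 bp. It was at most 1 kb at 60 sites (8.10%), at most 10 kb at 306 (41.3%) and at most 100 kb at 674 (91.0%). The medians were 19192 bp to GABPα replicate 1 and 19372 bp to replicate 2, so both GABPα replicates gave nearly the same spacing. To a high confidence GABPα interval the median was 55375.5 bp, over the sites on chromosomes that held one, and 15 sites had one within 1 kb. For sites with MACS-only GABPα this median was 32865 bp. Such an interval lay within 10 kb at 32.4% of them, against 19.0% of the sites without GABPα.

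**Figure D3:**
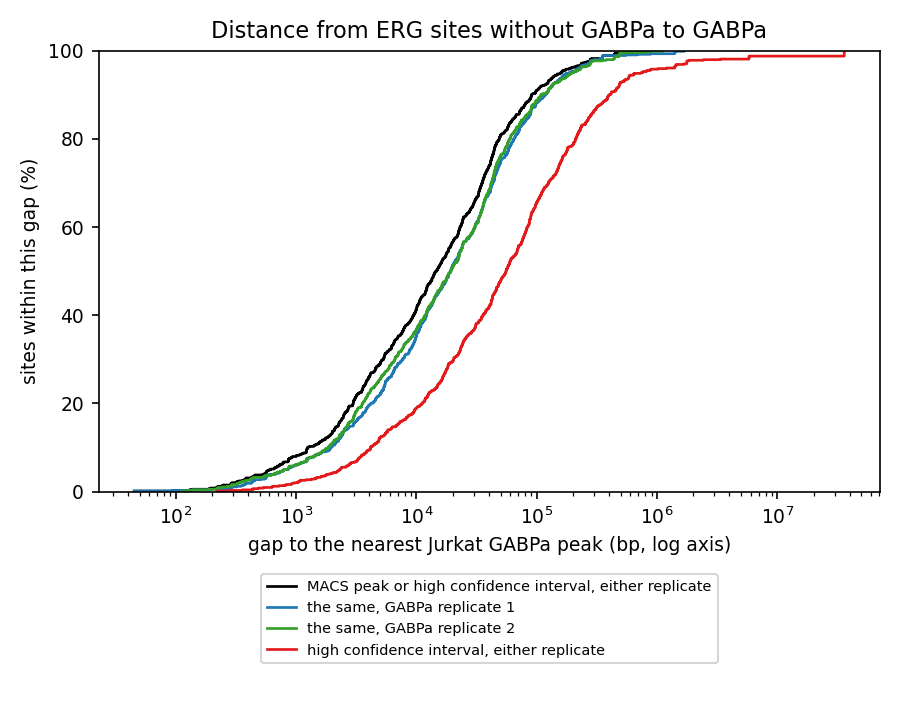
Cumulative share of the sites without GABPα (%, vertical axis) against the gap in bp (log axis) to the nearest Jurkat GABPα peak of either replicate, of replicate 1, of replicate 2, and to the nearest high confidence GABPα interval. The curves of the 2 replicates run together (medians 19192 and 19372 bp), and the high confidence curve lies to the right of the others (median 55375.5 bp).

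The sites just inside the rule were a 428 bp site at chr1:231452802-231453229, 45 bp from a GABPα peak, with a score of 121.78 in replicate 1 and no peak in replicate 2, and a site on chromosome 8 at 93 bp, with scores of 96.19 and 343.65. The next 3, at 129, 135 and 188 bp, lay on chromosome 16, with starts from 44945576 to 44953497, and none of them had a MACS peak in replicate 2. SWEMBL alone called GABPα at the site at 129 bp in both GABPα replicates, and at the site at 135 bp in GABPα replicate 2. Among the excluded sites the smallest overlaps with GABPα were 44, 45, 47, 48 and 50 bp, on chromosomes 4, 16, 4, Y and 4. The first was a 100 bp site, and the other 4 were short sites of 45, 47, 48 and 50 bp that lay wholly inside a GABPα peak. The 47 bp site had a replicate 2 score of 1476.71. The farthest site, chr9:69238153-69238206, was 54 bp long, scored 171.70 and 100.86, and had no GABPα peak within 882673 bp.

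Counted as sites, those within 1 kb of GABPα were clustered more often than those farther away. Sites of 1 cluster count separately here, as on chromosome 16 from 44945108 to 44956092, where 7 sites lay 129 to 1573 bp from GABPα. Places were not counted by distance. Of the 60 sites within 1 kb of GABPα, 28 (46.7%) lay within 10 kb of another site without GABPα, against 29.7% of the 246 sites at 1 to 10 kb, 21.2% of the 368 at 10 to 100 kb and 28.4% of the 67 beyond 100 kb. Support in both replicates was 33.3% (22.7 to 45.9), 31.7%, 26.1% and 26.9% (17.7 to 38.5) in the same order, with overlapping intervals. Median scores in replicate 1 were 107.23, 120.16, 125.31 and 137.76, and in replicate 2 149.30, 223.74, 208.19 and 284.07.

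Of the sites without GABPα, 543 were isolated, with no other such site within 10 kb. The other 198 (26.7%) fell into 64 clusters, and 17 clusters of 4 or more held 101 sites (13.6%) on 9 chromosomes. Counting a cluster once left 607 places. Some neighbours were pieces of 1 peak, since 23 of the 44 pairs lay inside a single replicate 2 MACS peak, and with whole MACS peaks as sites the clustered share was 16.5%. Of the 741 sites, 30.6% lay within 10 kb of some other ERG site, against 27.5% of all Jurkat ERG sites, a share near the background. Clustered sites were shorter, with a median of 132.5 bp against 200.0 bp for isolated ones. Their replicate 1 score was lower (median 98.79 against 139.77), their replicate 2 score was similar in the median (230.30 against 214.29) and reached higher (up to 3119.66 against 2351.65). Across replicates Spearman's rho was 0.30 over 124 clustered and 0.49 over 362 isolated sites with both scores, again as a description of sites that partly share peaks.

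**Figure D4:**
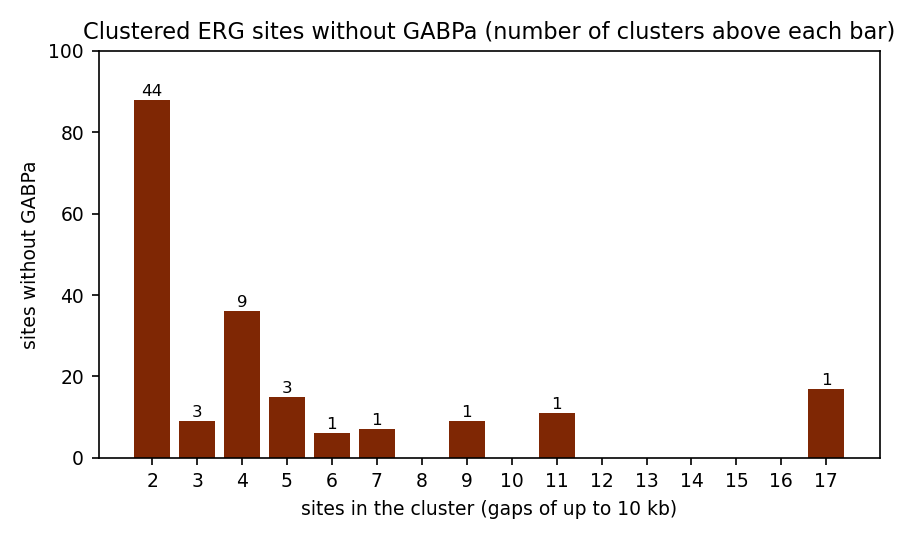
Number of sites without GABPα (bar height) in clusters of each size (horizontal axis, sites per cluster, neighbours up to 10 kb apart), with the number of clusters printed above each bar; the 543 isolated sites are not drawn. Pairs are most frequent, with 44 clusters holding 88 sites, and the largest cluster holds 17.

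The largest cluster, on chromosome 10 from 41680745 to 41704815, packed 17 of the sites into 24071 bp. Its scores ran from 59.40 to 240.84 in replicate 1 (13 sites) and from 50.22 to 571.53 in replicate 2 (8 sites), and 3 of its sites were high confidence in both replicates. GABPα peaks lay between 284 and 4373 bp from its sites, and its span held 22 ERG sites in all. The span also held MACS peaks of ERG (23 and 7 in the Jurkat replicates) and of Jurkat GABPα (2 and 4). VCaP ERG had 8 peaks there with vehicle and 6 with R1881. Repeated sequence at the clusters was not analysed, so its part in their calls was not tested. The second, on the Y chromosome from 11906628 to 11917889, held 11 sites. Their replicate 2 median of 3119.66 was the highest score in that file, while in replicate 1 9 of them scored only between 57.61 and 148.13. The replicates thus scored the sites of this cluster very differently. Its span held 4 MACS peaks of replicate 2 and 14 of replicate 1, and sites in the same peak repeat its score. The third, on chromosome 4 from 49330668 to 49354805, held 9 sites with scores of 77.76 to 132.64 in replicate 1 (6 sites) and 61.46 to 1013.26 in replicate 2 (9 sites).

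The share was highest on the Y chromosome. Of its 42 Jurkat ERG sites, 31 (73.8%, 58.9 to 84.7) lacked GABPα, and 25 of the 31 were clustered, so that the 31 sites took up 11 places. On chromosomes with at least 100 ERG sites the share ran from 25.4% on chromosome 3 (32 of 126, all isolated) and 25.9% on chromosome 2 (45 of 174) to 41.1% on chromosome 10 (67 of 163). Smaller chromosomes reached higher, up to 48.4% (32.0 to 65.2) on chromosome 19, whose interval overlapped that of the Y. The Y chromosome and the contig 9_random together held 34 of the 741 sites (4.59%), against 2.42% of all Jurkat ERG sites.

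VCaP was the measurement that the choice of sites did not use. With vehicle, an ERG MACS peak lay at 61 of the 741 sites (8.23%, 6.46 to 10.4), against 11.9% of all Jurkat ERG sites. With R1881 it was 68 (9.18%, 7.30 to 11.5), against 12.3% of all, and at t0 6 (0.810%), against 0.839%. The t0 sample had 6963 ERG MACS peaks but 2 high confidence intervals. With vehicle the shares were 12.8% at sites with MACS-only GABPα and 15.8% at sites with high confidence GABPα, and with R1881 13.5% and 15.1%. There was 1 VCaP sample for each treatment, so these differences have no replicate check and were not tested. In any of the 3 treatments 91 sites (12.3%) had a VCaP ERG peak, against 15.8% of all, and 39 (5.26%) had one with both vehicle and R1881, against 8.78%.

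Much of this sharing sat in the clusters. Clusters of 4 or more held 35 of the 61 sites shared with vehicle (57.4%) and 44 of the 68 shared with R1881 (64.7%), and 14 of the 17 clusters had a site shared with R1881. Several sites could lie in the same VCaP peak, as the 35 lay in 24 vehicle peaks and the 44 in 27 R1881 peaks. Of the 101 sites in such clusters 34.7% (26.1 to 44.3) had a VCaP ERG peak with vehicle and 43.6% (34.3 to 53.3) with R1881. Of the 543 isolated sites 25 (4.60%, 3.14 to 6.71) and 22 (4.05%, 2.69 to 6.06) had one. Isolated sites with MACS-only GABPα gave 6.50% with vehicle and 5.17% with R1881, and isolated sites with high confidence GABPα gave 7.35% and 7.57%. The interval with R1881 for isolated sites without GABPα overlapped those of the isolated sites of both other classes. In each class isolated means no other site of that class within 10 kb, so sites of other classes could lie nearer. The classes with GABPα also had higher R1881 shares over all their sites, 13.5% and 15.1%, than over their isolated sites. More sharing outside isolated sites was thus not particular to the sites without GABPα. Isolated sites that were high confidence in both Jurkat replicates were shared with any VCaP ERG sample at 15 of 167 (8.98%, 5.52 to 14.3), and those high confidence in 1 at 16 of 376 (4.26%, 2.64 to 6.80). In the Y cluster 5 of 11 sites lay in 1 VCaP ERG peak with R1881. In the chromosome 10 cluster 8 of 17 sites lay in 4 peaks with vehicle and 3 in 1 peak with R1881.

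**Figure D5:**
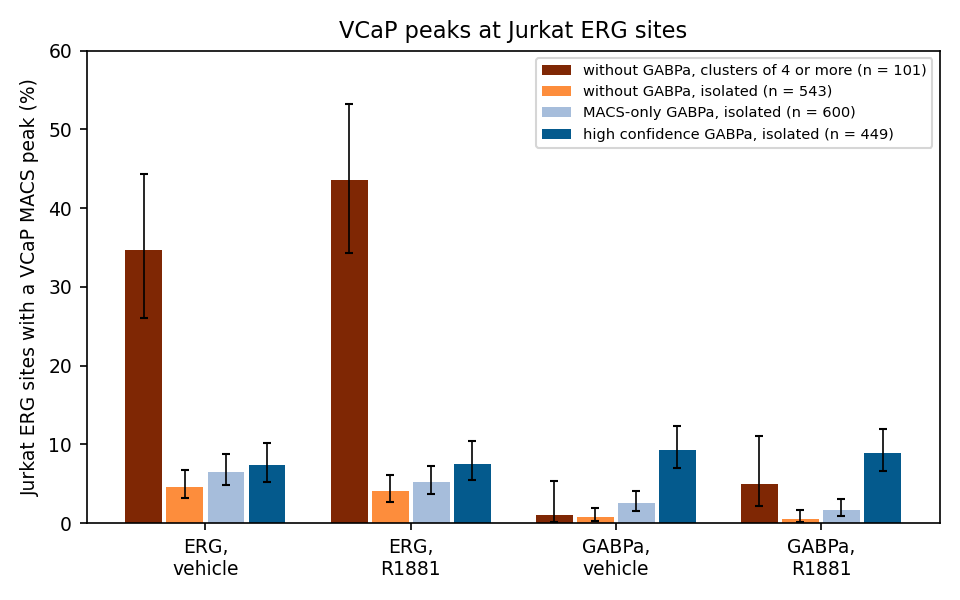
Share of Jurkat ERG sites (%, vertical axis) with a MACS peak of ERG or GABPα in VCaP cells with vehicle or R1881, for sites without GABPα in clusters of 4 or more (n = 101), isolated sites without GABPα (n = 543), isolated sites with MACS-only GABPα (n = 600) and isolated sites with high confidence GABPα (n = 449); bars are shares in 1 sample and whiskers 95% Wilson intervals over sites. For ERG the clustered sites stand highest (43.6% with R1881), and for GABPα the isolated sites without Jurkat GABPα stay below 1%. Isolated means no other site of the same class within 10 kb, and clustered sites with GABPα are not drawn.

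The VCaP scores at the shared sites had medians above those of all ERG peaks of the same samples. At the 61 sites shared with vehicle they ran from 50.59 over a median of 103.65 to 283.45, and at the 68 shared with R1881 from 50.04 over 90.66 to 303.73, beside medians of 68.83 and 77.51 over all VCaP ERG peaks of those samples. The Jurkat score was higher at shared sites, with a median highest score of 351.83 with vehicle against 210.39 at sites not shared, and 356.42 with R1881 against 209.27. Medians over sites repeat the score of a peak that holds several sites. The 61 sites lay in 50 vehicle peaks and the 68 in 51 R1881 peaks, and 36 and 46 of them were clustered. A VCaP ERG high confidence interval was present at 7 sites with vehicle, 4 with R1881 and 0 at t0, against 4.19%, 2.71% and 0% of all Jurkat ERG sites.

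The 4 sites that were high confidence for ERG in VCaP with R1881 were chr4:48797079-48797259, chr10:98551266-98551548, chr16:44945108-44945241 and chr10:39178808-39178896. The first scored 128.44 and 806.08 in the Jurkat replicates, and 171.96 with vehicle and 152.25 with R1881 in VCaP. The second scored 228.25 and 495.04 in Jurkat, and 104.29 and 76.02 in VCaP, where it also had a GABPα peak of 64.68 with R1881. The third scored 200.12 and 127.31 in Jurkat and 75.14 in VCaP with R1881, with no VCaP peak with vehicle. The fourth scored 109.01 and 139.97 in Jurkat, and 104.04 and 100.71 in VCaP. Of these 4, 3 belonged to clusters of 4 or more, and the site at 98551266 on chromosome 10 was the exception.

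GABPα was rarely called at these sites in VCaP as well. A VCaP GABPα MACS peak lay at 3 sites at t0 (0.405%, against 2.12% of all Jurkat ERG sites), 5 with vehicle (0.675%, against 3.85%) and 8 with R1881 (1.08%, 0.548 to 2.12, against 3.6%). At sites with high confidence Jurkat GABPα the shares were 4.09% at t0, 8.92% with vehicle and 8.55% with R1881. At sites with MACS-only GABPα they were 2.41%, 3.34% and 2.54% (1.63 to 3.93) in the same order. With R1881 the interval of the MACS-only class overlapped that of the sites without GABPα. A VCaP GABPα peak in any treatment lay at 13 of the 741 sites (1.75%), against 6.02% of all. No site without Jurkat GABPα had a high confidence GABPα interval in a VCaP sample (0 of 741, upper Wilson bound 0.516%), against 0.0987% of all Jurkat ERG sites at t0, 0.543% with vehicle and 0.493% with R1881. Sites with MACS-only GABPα likewise had none (0 of 748 in each sample). The median gap to a VCaP GABPα MACS peak was 139209 bp at t0, 64084 bp with vehicle and 67744 bp with R1881.

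Counted over all 10 ChIP samples, 230 of the sites had a MACS peak in 1 sample, 434 in 2, 40 in 3, 28 in 4, 6 in 5 and 3 in 6. The 3 sites with peaks in 6 samples, singled out after their values were seen, carried GABPα in VCaP but not in Jurkat. At chrX:153042553-153042948 ERG scored 161.38 and 267.27 in Jurkat and 230.04 with vehicle and 176.57 with R1881 in VCaP, while GABPα in VCaP scored 444.90 with vehicle and 213.19 with R1881. At chr6:110817658-110817951 ERG scored 134.91 and 255.68 in Jurkat and 245.10 and 145.95 in VCaP, and VCaP GABPα scored 60.37 and 93.38. At chr5:32534393-32534686 ERG scored 159.76 and 197.25 in Jurkat and 61.77 at t0, 194.49 with vehicle and 58.72 with R1881 in VCaP, with a vehicle GABPα peak of 97.88.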

How the data were processed

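The authors deposited ChIP-seq peak files on hg18 for 10 ChIP samples. Per the labels and the study's methods, reads were aligned with BWA (0.5.5), MACS and SWEMBL each called peaks over an input library, sample by sample with no pooling, and intervals called by both formed the high confidence set. The deposited MACS files give a score per peak (10 times the negative log10 of the p-value, at least 50). The fourth column of the ERG replicate 1 high confidence file has no stated meaning and was not used. Read numbers were not in the files. A high confidence interval took the score of the MACS peak of its own sample that it overlapped.

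Intervals were merged and compared at 1 bp of overlap with Python 3.11.15 and numpy 2.4.6. Simulated intervals served to check overlaps, merging and gaps against those of bedtools 2.31.1. A gap is the distance between nearest edges, and sites up to 10 kb apart formed a cluster. Shares have 95% Wilson intervals (scipy 1.17.1). No test was run, because the Jurkat files chose the sites and VCaP had 1 sample per treatment. The labels do not say whether Jurkat replicates are separate cultures. Sites were named by rule: the 10 with the highest lower score of both replicates, up to 5 with high confidence ERG in VCaP with R1881, the 5 closest to and farthest from GABPα, the 5 excluded with the smallest overlap, and the 3 largest clusters. The sites, the rule and the comparisons were chosen with earlier results of these data known. Alternatives changed the replicates, the peaks counted as GABPα, the overlap, the score minimum, the intervals, the cluster gap and the VCaP sample. The genes and sequence at the sites were not analysed here.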

Additional observations from a re-analysis of the deposited data

Results flagged for a closer look

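SWEMBL calls of GABPα in Jurkat had no part in choosing the sites unless MACS had called the same place, and they showed signal at some of the 741 sites. A SWEMBL interval lay at 13 sites in GABPα replicate 1 and at 40 in replicate 2. In either replicate this came to 41 sites (5.53%, 4.10 to 7.42), against 28.6% of all Jurkat ERG sites and 1 of 748 sites with MACS-only GABPα. These shares are largely set by the classes, since a place called by both callers is high confidence. In both replicates 12 sites had one. Of the 41 sites, 15 lay in clusters of 4 or more, which was 14.9% (9.21 to 23.1) of the 101 sites there. A further 17 were isolated, which was 3.13% (1.96 to 4.96) of the 543 isolated sites. A VCaP ERG MACS peak lay at 8 of the 41, against 91 of the 741 sites (12.3%). The 41 sites included the strongest site named above, chr1:158776329-158777142. Their median gap to a GABPα MACS peak was 5492 bp, from 129 to 73882 bp, and their median highest ERG score was 131.45, against 226.91 at the other sites without GABPα. The cause was not tested.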

How the results depend on the processing

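Over 116 recomputed values, 73 moved by less than the spread used for that value and 43 by more, the counts by over 1.5 times. Leaving out 1 replicate gave 318 (without ERG replicate 2) to 950 sites, a share without GABPα of 28.8% to 46.9%, a median gap of 10298 to 18011 bp, and 21.4% to 30.1% of sites clustered. Taken as a block, the same-numbered pairs averaged 593 sites, a share of 40.7%, a gap of 15733 bp and a VCaP ERG share with R1881 of 11.7%. Same-numbered pairs gave shares of 40.3% and 41.1% and the other pairs 33.1% and 47.4%, and nothing but the number pairs the samples. Counting only high confidence GABPα gave 1489 sites, a share of 73.5%, 35.7% supported in both replicates and a gap of 43079.5 bp. Widening GABPα peaks by 1000 bp gave a share of 33.6% and a gap of 17801.5 bp, and requiring shared bases over 50% or more of whichever interval was shorter a gap of 14519.5 bp. An ERG score of at least 100 gave a share of 34.4%, 33.1% in both replicates and a gap of 15672.5 bp. A score of at least 400 gave 161 sites, a share of 29.6%, 57.8% in both replicates, a median score of 583.78, a gap of 13446 bp, 31.1% clustered and a VCaP ERG share of 19.9%. Whole MACS peaks gave a gap of 14783.5 bp and 16.5% clustered. Cluster gaps of 1, 50 and 100 kb gave 16.7%, 34.0% and 40.1% clustered. With t0 in place of R1881 the VCaP shares were 0.810% for ERG and 0.405% for GABPα, and with high confidence intervals 0.540% and 0%. Added after seeing the data, counting GABPα SWEMBL intervals gave a gap of 13237.5 bp, SWEMBL intervals for ERG replicate 1 gave 32.99% clustered, and leaving out clustered sites gave a gap of 17344 bp and a VCaP ERG share of 4.05%. The cause was not tested. Without read numbers, a weak GABPα signal below the peak threshold cannot be told apart from none.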
